A study of Mus musculus with 6 samples.

Results

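The 3 arrays described here hold RNA of C4HD cultures that received pre-miR-Control, out of 6 arrays in the series. They were chosen by their titles alone, and no measured value entered the choice. C4HD is a hormone-dependent ductal mammary tumour of female BALB/c mice. It arose under medroxyprogesterone acetate (MPA), a synthetic progestin given at 40 mg every 3 months, and was passed on by serial transplantation into animals that carry an MPA depot. Epithelial cells of such tumours were put in primary culture after repeated sedimentation had removed the fibroblast fraction, in medium with steroid-stripped serum. The cultures were then transfected for 48 h with 30 nM of a precursor RNA that forms no known mammalian microRNA. These controls therefore carry both a transfected RNA and its reagent, and the untransfected culture was not analysed here. The labels call the 3 replicates biological, but they do not say whether each came from its own tumour, so the spread given below is the spread between these 3 samples. The other 3 arrays hold cultures of the same kind given 30 nM pre-miR-16 for 48 h, and they are used only for 1 check of slides.

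The mammary gland is built from an inner luminal layer, which carries the hormone receptors and the cells that make milk, and an outer basal layer of contractile myoepithelial cells. Keratins, the intermediate filaments of epithelia, mark these layers: Krt8 and Krt18 are paired in luminal cells, Krt5 and Krt14 in basal cells. Progesterone acts through the receptor encoded by Pgr, largely on hormone-sensing luminal cells, which pass the signal to their neighbours through secreted factors such as amphiregulin. ErbB-2, encoded by Erbb2, is a receptor tyrosine kinase without a known ligand of its own that pairs with other ERBB receptors.

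A level is the log2 processed signal of a probe minus the 75th percentile of its array, so a level of 0 lies at that percentile. Levels are given as mean ± SD with n = 3 arrays. A gene takes the level of its brightest probe that was well above background on all 3 arrays. Its percentile is its place among all genes that passed, and 100 is the brightest. Brightness also depends on the probe, so levels and percentiles order signals and not amounts of transcript. The arrays measured 19504 genes with a matched symbol, of which 12806, or 65.7%, were well above background on all 3 arrays. A further 430 genes passed on 2 arrays, 1686 on 1 and 4582 on 0. Levels of the genes that passed ran from -5.13 to 9.67 with a median of 0.73, and 58.6% of them lay above 0. The median over all 19504 genes, detected or not, was -1.80. List medians below are likewise over all measured members and are to be read beside -1.80. Counts of passing genes in a list are to be read beside the 65.7% of all genes. The 75th percentile of the signal was 625, 650 and 696 units on replicates 1, 2 and 3, no spot was saturated, and 64.0%, 57.2% and 57.7% of spots were well above background. Only 3 arrays limit the precision.

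Luminal keratins were among the brightest signals of the cultures. Krt18 stood at 8.58, 8.53 and 8.35 on replicates 1, 2 and 3, a mean of 8.49 ± 0.12 at percentile 99.9. Krt8, its partner, stood at 8.18, 8.18 and 7.93, a mean of 8.10 ± 0.15 at percentile 99.7, and its second probe gave 7.90 ± 0.19. The 3 arrays lay close together for both genes, with replicate 3 the lowest. Krt19 (7.84 ± 0.12) and Krt7 (7.66 ± 0.02), the other simple keratins of the luminal layer, were also above percentile 99. Of the 23 luminal epithelial markers measured, 21 were well above background on all 3 arrays, against 65.7% of all genes, and their median level was 3.62 over all 23. Tight junction genes of the list followed the keratins, with Cldn3 at 6.70 ± 0.07 and Cldn4 at 5.93 ± 0.15. Cdh1, the adhesion protein E-cadherin, had 4.75 ± 0.18 and Epcam, an epithelial adhesion molecule, 3.62 ± 0.17. Muc1, a mucin of the luminal surface, passed only at a low level of -4.22. Prom1 passed on no array and Tspan8 on 1.

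**Figure D1:**
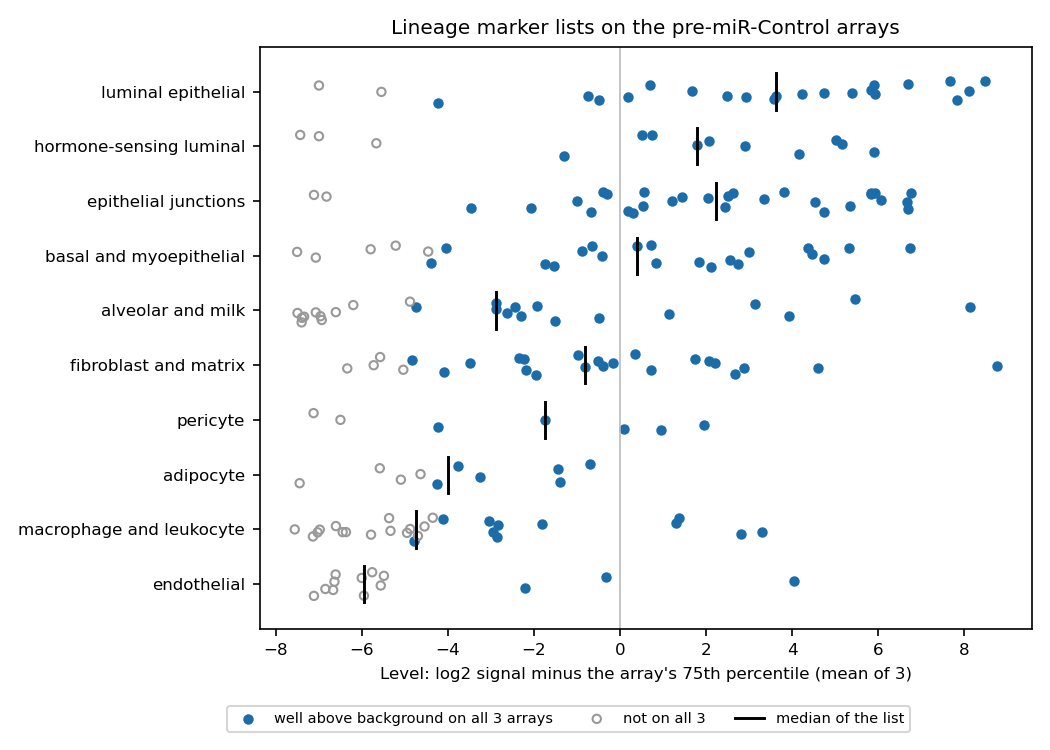
Mean level of each marker (log2 signal minus the array's 75th percentile, n = 3 arrays) in 10 lineage lists, with filled points for genes well above background on all 3 arrays, open points for the rest and a black bar at the median of the list. The luminal list has its median at 3.62 and the endothelial list at -5.95.

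Genes of cell junctions shared this picture. In the wider junction list 28 of 30 genes passed (93.3%, against 65.7% of all genes), with a median of 2.24. Lsr, a protein of tricellular contacts, stood highest at 6.77 ± 0.09, followed by Cldn3 and by F11r, a junctional adhesion molecule, at 6.66 ± 0.04. The desmosomal plaque gene Pkp3 had 5.84 ± 0.04, and the catenins Ctnna1 and Ctnnb1 had 6.07 ± 0.07 and 4.52 ± 0.08. Cldn1 and Cldn6 passed on no array. Over the whole claudin family 10 of 26 genes passed, below the 65.7% of all genes, and the 3 that lay in the top 10% of levels were Cldn3, Cldn4 and Cldn7 (5.84 ± 0.11).

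Markers of the basal layer were detected in part beside the luminal ones. Of 25 basal and myoepithelial markers 20 passed (80.0%, against 65.7% of all genes), with a median level of 0.39. Whether these signals came from basal cells was not tested. Krt17, a keratin of basal and stressed epithelium, was the highest of them at 6.75, 6.89 and 6.56 (6.73 ± 0.17), and Krt14 stood at 3.09, 3.18 and 2.74 (3.00 ± 0.24). Krt5, the usual partner of Krt14, was near the floor at -4.01, -4.71 and -4.48 (-4.40 ± 0.36, percentile 3.01). Trp63, the transcription factor that defines basal cells, passed on no array at any of its 3 probes, and neither did Oxtr, the oxytocin receptor of contracting myoepithelium. The contractile genes Acta2 (4.47 ± 0.31), Tagln (4.36 ± 0.26) and Cnn1 (2.11 ± 0.24) passed on all 3 arrays, and all were lowest on replicate 3. Myh11 (-4.46) and Mylk (-5.21), contractile genes of the same list, did not pass on all 3. Itgb4 (5.33 ± 0.21), an integrin that anchors epithelium to its basement membrane, was well above 0 at its brightest probe. The dimmest of its 3 passing probes gave -4.24.

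Of 24 type I keratins 12 passed, and of 17 type II keratins 11 passed (64.7%), against 65.7% of all genes. Above a level of 5 there were only Krt18, Krt19 and Krt17 of type I and Krt8 and Krt7 of type II. Krt13 (2.75 ± 0.16) and Krt4 (2.69 ± 0.14), a pair of internal stratified epithelia, came next with Krt14. The epidermal keratins Krt10 (-4.04) and Krt1 (-4.30) passed at low levels, and Krt2 passed on no array.

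Of 24 genes of the alveolar lineage and milk 14 passed, a share of 58.3% that is near the 65.7% of all genes, and the median level was -2.88. The caseins Csn1s1, Csn1s2a, Csn1s2b, Csn2 and Csn3, the main milk proteins, passed on no array. Wap, the whey acidic protein, lay at -4.75 ± 0.15, and Lalba, alpha-lactalbumin, at -2.64 ± 0.43. Elf5, the transcription factor of alveolar progenitors, stood at -0.47, -0.46 and -0.53, a mean of -0.49 ± 0.04 at percentile 36.1, so it was measured on all 3 arrays but below the middle of the detected genes. Kit, a receptor of luminal progenitors, and Btn1a1, a protein of the milk fat globule, passed on no array. The bright members of the list are genes with wider roles: Mfge8, which bridges phosphatidylserine and integrins, at 8.14 ± 0.12, Plin2, a coat protein of lipid droplets, at 5.46 ± 0.08, and the retinal dehydrogenase gene Aldh1a3 at 3.92 ± 0.13.

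The genes that connect steroid hormones to the epithelium were measured at intermediate levels. Pgr stood at 0.57, 0.49 and 0.47, a mean of 0.51 ± 0.05 at percentile 47.4, and a second Pgr probe gave -2.29 ± 0.18. Esr1, the oestrogen receptor alpha, stood at 0.81, 0.63 and 0.80, a mean of 0.75 ± 0.10 at percentile 50.3 from a probe printed as 10 spots, while its other probe gave -3.75 ± 1.20. With the mean of the passing probes Esr1 stood at percentile 32.2. The arrays hardly differed for the brighter probe of each receptor. In the hormone-sensing luminal list 10 of 13 genes passed (76.9%, against 65.7% of all genes). The luminal transcription factor genes Gata3 (5.90 ± 0.06) and Tbx3 (5.02 ± 0.09) stood above percentile 94, and the surface marker Ly6d had 5.16 ± 0.02. Foxa1, a factor that opens chromatin for steroid receptors, had 1.79 ± 0.06, and Prlr, the prolactin receptor, 2.07 ± 0.22. The known mediators of progesterone divided. Areg, amphiregulin, and Wnt4 had 4.15 ± 0.04 and 2.89 ± 0.13, whereas Tnfsf11, which encodes RANKL, and Calca, calcitonin, passed on no array.

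Of 48 nuclear receptors 28 passed, a share of 58.3% beside the 65.7% of all genes. The orphan receptor Nr2f6 was highest at 5.50 ± 0.05, followed by the thyroid hormone receptor Thra (3.20 ± 0.06), the retinoid partner Rxra (3.16 ± 0.05) and the orphan Esrra (2.51 ± 0.05). Nr3c1, the glucocorticoid receptor, to which MPA is also known to bind, had 0.39 ± 0.10. Esr2, oestrogen receptor beta, Thrb and Ppara passed on no array. All 18 genes for co-regulators and chaperones of steroid receptors passed. The chaperone genes Hsp90ab1 (7.49 ± 0.08), Hspa8 (6.58 ± 0.04) and Hsp90aa1 (6.27 ± 0.05) led them. Of 20 genes on a list of progestin-responsive genes, which includes Pgr itself, 17 passed (85.0%, against 65.7% of all genes). Sgk1, a kinase also raised by glucocorticoids, had 5.87 ± 0.08, Stat5a, a mediator of prolactin, 5.24 ± 0.14, and Ccnd1, cyclin D1, 3.39 ± 0.05. Fkbp5, a chaperone gene that steroids raise in many tissues, lay at -1.75, and Hsd11b2 passed on no array.

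**Figure D2:**
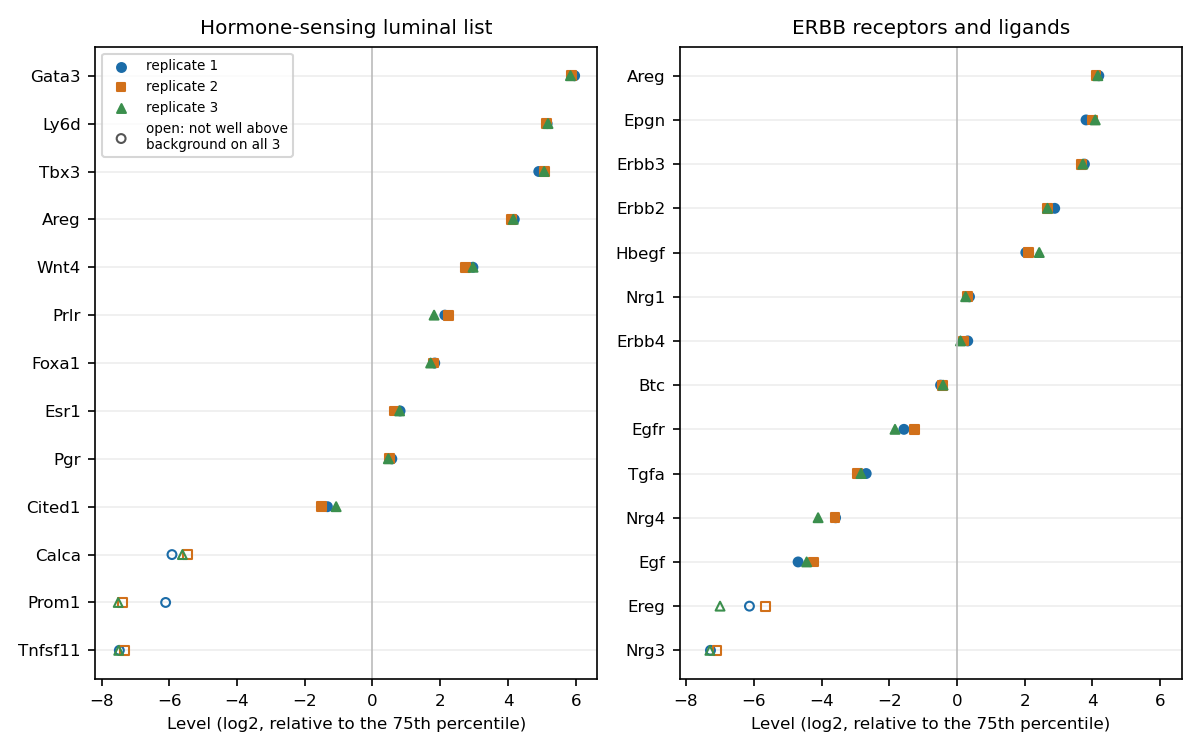
Level on each of the 3 control arrays (log2, relative to the array's 75th percentile) for the hormone-sensing luminal list at the left and the ERBB receptors and ligands at the right, with open symbols for genes not well above background on all 3 arrays. Pgr lies at 0.51 and Erbb2 at 2.74, and the 3 arrays lie close together for both.

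Most ERBB receptors and ligands were detected, at levels above and below 0 and with a list median of -0.12. Erbb2 stood at 2.88, 2.67 and 2.67, a mean of 2.74 ± 0.12 at percentile 75.6, at a probe printed as 10 spots at chr11:98545828-98545887 of mm7. A second Erbb2 probe at chr11:98543549-98543608 gave -1.44 ± 0.11. Erbb3, which has little kinase activity of its own and signals beside ErbB-2, stood at 3.76, 3.67 and 3.72, a mean of 3.72 ± 0.05. Of the other probes of Erbb3 that passed, 3 lay between -4.04 and -3.15, so the Erbb3 level rests on 1 probe. Erbb4 had 0.21 ± 0.11, and Egfr, the receptor for EGF, lay lower at -1.57, -1.24 and -1.83 (-1.55 ± 0.29). Among the ligands, Areg was followed by Epgn, epigen, at 3.96 ± 0.14 and by Hbegf at 2.03, 2.11 and 2.43 (2.19 ± 0.21), which were both highest on replicate 3. Nrg1, a ligand of Erbb3 and Erbb4, had 0.32 ± 0.06, Btc -0.44 ± 0.04, Tgfa -2.82 ± 0.13 and Egf -4.46 ± 0.22. Ereg and Nrg3 passed on no array. In all 12 of 14 family members passed (85.7%, against 65.7% of all genes). Downstream, 31 of 32 genes of ERBB signalling passed (96.9%). The phosphatase gene Ptpn11 was highest at 6.20 ± 0.06, followed by Grb7, an adaptor and a neighbour of Erbb2 on its chromosome, at 5.31 ± 0.05 and by the feedback inhibitor Errfi1 at 4.89 ± 0.16. Muc4, a membrane mucin that binds ErbB-2, passed on 2 arrays.

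Of 47 other receptor kinases 32 passed, about the share of all genes. The collagen receptor gene Ddr1 had 4.73 ± 0.19, Flt1 2.98 ± 0.14, Epha2 2.66 ± 0.19 and Met, the receptor of hepatocyte growth factor, 2.29 ± 0.03. The ephrin receptor gene Epha1 stood at 2.46, 3.32 and 3.51, lowest on replicate 1. Igf1r and Insr, the receptors for IGF-1 and insulin, lay at -1.29 and -1.45. Of the cytokine receptors 28 of 34 passed, led by Tnfrsf12a, the receptor of TWEAK, at 6.75 ± 0.09, Ltbr at 4.65 ± 0.06 and Ifngr1 at 4.30 ± 0.11. Of the TGF-beta, WNT and Notch receptors 23 of 32 passed, led by Smo, the signal transducer of the Hedgehog pathway, at 3.79 ± 0.08 and Tgfbr2 at 3.38 ± 0.12. The WNT receptor Lgr5, a marker of stem cells, passed on 1 array.

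Ligands of these receptors formed part of the secreted products. Of 63 growth factor genes 43 passed (68.3%, near the 65.7% of all genes), with a median of -1.71. Grn, granulin, was highest at 7.59 ± 0.20, followed by Pdgfa at 6.64 ± 0.13, Hdgf at 5.50 ± 0.05 and Inhbb, an activin subunit, at 5.14 ± 0.11. Wnt10a (3.31 ± 0.03) and Wnt7b (3.26 ± 0.05) stood beside Wnt4. Igf1, Igf2, Hgf, Fgf10 and Bmp2 passed on no array. Mouse mammary tumours are often driven by viral insertion near certain genes, and 8 of 15 genes near common sites of MMTV insertion passed (53.3%, against 65.7%). Fgf3, Fgf10, Wnt3, Rspo2 and Rspo3, 5 of these, passed on no array, and Wnt1 lay at -5.09. Only Eif3e (4.66 ± 0.05), a translation factor subunit, and Fgfr2 (1.62 ± 0.16) were above 0.

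Genes for secreted carriers and antimicrobial proteins included very bright signals. Wfdc2, a protein with whey acidic domains, stood at 8.74, 8.80 and 8.69 (8.74 ± 0.06, percentile 99.9) and Clu, the extracellular chaperone clusterin, at 8.48, 8.32 and 8.04 (8.28 ± 0.22). Rbp4, the retinol carrier, had 5.48 ± 0.16, Hp, haptoglobin, 5.44 ± 0.16, C3 of complement 5.30 ± 0.20 and the protease inhibitor gene Slpi 5.06 ± 0.03. The iron-binding defence protein gene Lcn2 had 3.15 ± 0.05. Of the list 30 of 42 passed (71.4%), and Pigr, Orm1 and Ttr passed on no array. Among 48 proteases and inhibitors 35 passed. The lysosomal cathepsins Ctsd (6.79 ± 0.07), Ctsh (6.20 ± 0.04), Ctsb (6.15 ± 0.03) and Ctsl (6.06 ± 0.02) filled 4 of the 5 highest places, with Timp2, an inhibitor of metalloproteases, at 6.60 ± 0.21. Of the matrix metalloproteases (MMPs) of the list, Mmp14 (5.79 ± 0.02), Mmp11 (2.99) and Mmp15 (1.84) were above 0, Mmp9 lay at -4.25 and Mmp7 and Mmp12 passed on no array. Galectins Lgals1 (7.93 ± 0.03) and Lgals3 (6.29 ± 0.08) led the matricellular list, in which 37 of 50 genes passed. Of the IGF binding proteins, Igfbp7 had 2.85 ± 0.14 and Igfbp3 and Igfbp5 passed on no array.

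Cytokines and chemokines were detected for 30 of 49 genes (61.2%, near the 65.7% of all genes), with a median of -4.05. Mif stood highest at 6.17 ± 0.17, followed by Cxcl16 (3.96 ± 0.08), Ccl25 (3.43 ± 0.08), Cxcl5 (3.13 ± 0.10), Cx3cl1 (2.91 ± 0.13) and Cxcl15 (2.63 ± 0.54). Csf3, granulocyte colony-stimulating factor, had 2.14 ± 0.12 and Tnf 1.65 ± 0.07. Il6 passed on 2 arrays, and Ccl3, Ccl4, Cxcl9 and Cxcl12 passed on no array.

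The epidermal differentiation list held both bright and undetected genes. In all 30 of its 45 genes passed, close to the 65.7% of all genes, and its median was -3.29. S100a6, a calcium-binding protein that is not particular to squamous cells, stood at 9.05, 9.05 and 8.93 (9.01 ± 0.07), the fourth highest level of all genes. The cornified envelope genes Sprr2a1 and Sprr1a had 7.63 ± 0.02 and 7.34 ± 0.37, with Sprr1a at 7.59, 7.52 and 6.92, lowest on replicate 3. Lor, loricrin, the main protein of that envelope, had 4.93 ± 0.31, highest on replicate 3 at 5.28. In contrast Ivl, involucrin, was near the floor at -3.29, and Flg, filaggrin, Sprr3 and Sprr2d passed on no array. Sprr2 genes are near-identical copies of each other, so a probe can take signal from several of them, and the second Sprr2a1 probe gave -2.94 ± 0.44.

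Transcription factors of the mammary gland were mostly detected, with 43 of 53 passing (81.1%, against 65.7% of all genes). After Gata3 and Stat5a came Cebpb (5.21 ± 0.05), Tbx3 and Id2 (4.81 ± 0.32), the last at 4.50, 4.81 and 5.13 on the 3 arrays. Tfap2c, Id4, Hoxa5 and Satb1 passed on no array. Of 17 genes of the epithelial to mesenchymal transition 12 passed (70.6%, near the 65.7% of all genes), with Fn1, fibronectin, at 4.60 ± 0.16, Vim, vimentin, at 1.75 ± 0.10 and Snai2 at 0.84 ± 0.12. The factors Zeb1 and Snai1 lay at -4.25 ± 0.05 and -2.95 ± 0.02, Twist1 passed on 1 array, and Cdh2, N-cadherin, also on 1.

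Markers of other cell types were uneven. In such bulk RNA, fewer cells of a type and less RNA per cell cannot be told apart. Of 25 fibroblast and matrix genes 21 passed (84.0%, against 65.7% of all genes), with a median of -0.83. Their summed linear signal was 528, 451 and 494 on replicates 1, 2 and 3 (relative to the 75th percentile), most of it from the single bright Dcn probe. Col1a2 and Col1a1, fibrillar collagens, had 2.88 ± 0.11 and 2.67 ± 0.02, while Pdgfra, a defining receptor of fibroblasts, was near the floor at -4.08 and Lum passed on 1 array. Of 26 macrophage and leukocyte genes 11 passed (42.3%), with a median of -4.74 and summed signals of 26.6, 24.6 and 20.2. Cd14, a receptor for bacterial lipopolysaccharide, stood at 3.42, 3.25 and 3.20 (3.29 ± 0.11), and Lyz2, lysozyme, at 3.24, 3.19 and 2.03 (2.82 ± 0.68), with replicate 3 apart. Csf1r, the receptor of macrophage colony-stimulating factor, had 1.37 ± 0.33. Ptprc, the pan-leukocyte gene CD45, passed on no array at any of its 4 probes, and neither did Cd53, Laptm5 and Mrc1. Of 13 endothelial genes 3 passed (23.1%), with a median of -5.95. Vwf, von Willebrand factor, gave 4.04 ± 0.10 and 2.45 ± 0.11 at 2 probes, although Cdh5, Kdr, Tek, Tie1, Emcn, Sox17 and Robo4 passed on no array. Of 7 pericyte genes 5 passed (median -1.74), of 10 adipocyte genes 6 (median -4.01) and of 4 red cell genes 3, all below 0.

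Most genes of the cell cycle were detected. Of 35 genes of the G1/S transition and DNA replication 32 passed (91.4%, against 65.7% of all genes) with a median of 0.22. They were led by Pcna, the replication clamp, at 4.43 ± 0.08 and the helicase subunit Mcm7 at 3.96 ± 0.11. Of 33 genes of G2 and mitosis 28 passed (84.8%) with a median of -2.81. Birc5 (1.48 ± 0.08) and Aurka (1.00 ± 0.12) were the highest, Mki67, the proliferation marker Ki-67, had -1.29 ± 0.23 and Top2a -4.39 ± 0.57. These medians belong to different probes and were not tested against each other. Among the cyclins D and CDK inhibitors, in which 17 of 18 passed, Cdkn2b was highest at 4.02 ± 0.20, and Cdkn1c passed on no array.

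Interferon and antigen presentation genes passed at shares above that of all genes. Of 36 interferon-response genes 33 passed with a median of -0.63. Bst2, tetherin, stood above percentile 97 and Usp18 had 4.60 ± 0.15, whereas Ifit1 (-3.37) and Mx2 (-4.01) were low and Mx1 and Ifnb1 passed on no array. Of 20 antigen presentation genes 18 passed with a median of 3.40. The class I genes H2-K1 (7.80 ± 0.02) and H2-T23 (7.76 ± 0.06) and their partner B2m (7.07 ± 0.16) stood above percentile 99. Class I genes are close relatives, so their probes may share signal. The class II genes H2-Ab1 (-3.61) and H2-Eb1 (-2.91) were low, and Ciita, their activator, and H2-Aa passed on no array.

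Metabolic genes were almost all detected. All 30 lipid synthesis genes passed, among them Fasn, fatty acid synthase, at 6.40 ± 0.11 and the desaturase gene Scd2 at 5.65 ± 0.15. Of 23 genes of glycolysis and lactate 22 passed. The enzyme genes Aldoa (8.82 ± 0.13, with a second probe at 8.38 ± 0.15), Ldha (6.79 ± 0.19) and Pgk1 (6.46 ± 0.15) were highest, and Slc2a3, a glucose transporter, passed on no array while its relative Slc2a1 had 3.06 ± 0.20.

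Ribosomal protein genes filled much of the top of the ranking. Of the 50 genes with the highest level, 22 encoded proteins of the cytosolic ribosome, and on the single arrays their number was 21, 23 and 22. They make up 22 of 84 such genes, against 0.39% of all genes that passed. The 50 highest genes of the 3 arrays shared 45 members. All 84 ribosomal protein genes passed, with a median level of 6.95, and 71 lay in the top 10% of levels. Subunits of the respiratory chain and ATP synthase passed in 81 of 84 cases (median 4.98), proteasome subunits in 38 of 40 (median 4.52) and translation factors in 59 of 62 (median 3.33). All 21 tubulins, 13 of 17 S100 genes and all 18 genes of a housekeeping list (median 4.23) passed. By comparison 26 of 43 collagens (median -3.92) and 40 of 49 histones (median 0.10) passed. The single highest gene was Lars2, the mitochondrial leucyl-tRNA synthetase, at 9.70, 9.74 and 9.58 (9.67 ± 0.08) from 1 probe. Other bright genes outside the lists were Fth1, the ferritin heavy chain, at 8.55 ± 0.05, Anxa1, annexin A1, at 8.30 ± 0.05 and Mdh2, mitochondrial malate dehydrogenase, at 8.23 ± 0.04.

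**Figure D3:**
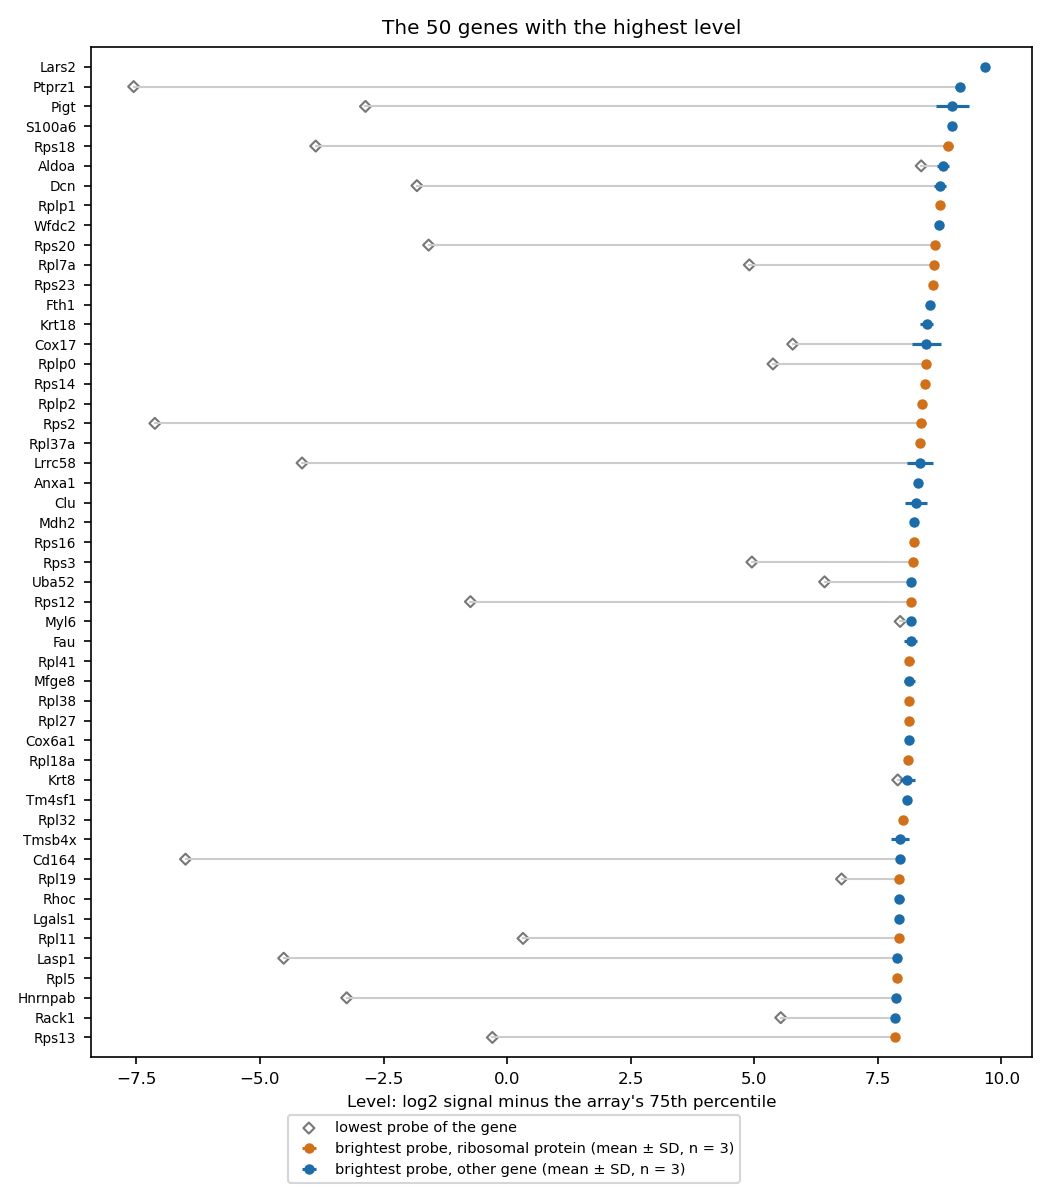
Level of the brightest probe (mean ± SD, n = 3, log2 relative to the array's 75th percentile) for the 50 genes with the highest level, ribosomal protein genes in orange, and the lowest probe of the same gene as an open diamond where the array holds several. The lowest probe is below 0 for 12 of the 23 genes with several probes.

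Ribosomal protein genes of mammals are known to start transcription within a run of pyrimidines. The choice of arrays did not use this feature. The letters CTTTC were searched within 15 bases on either side of the annotated start in RefSeq promoters of GRCm38.p6. They occurred on the strand of the gene in 17 of 63 ribosomal protein genes with a promoter entry (27.0%), against 4.76% of all 27025 genes, and on the other strand in 4.76% against 4.21%. Of the 50 highest genes 40 had an entry and 6 of these held the letters. The 3 that are ribosomal protein genes are printed from 60 bases before the start to 30 bases from it onward, with the letters in capitals, and were chosen after their values were seen. A match is a description of the letters and not a tested element.
Rpl7a (chr2:26910747-26910836, plus strand, level 8.63 ± 0.05): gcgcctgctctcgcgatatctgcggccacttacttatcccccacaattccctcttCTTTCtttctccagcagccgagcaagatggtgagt
Rplp2 (chr7:141447591-141447680, plus strand, level 8.40 ± 0.03): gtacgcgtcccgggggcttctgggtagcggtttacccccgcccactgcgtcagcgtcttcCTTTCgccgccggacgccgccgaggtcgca
Rpl38 (chr11:114668520-114668609, plus strand, level 8.14 ± 0.05): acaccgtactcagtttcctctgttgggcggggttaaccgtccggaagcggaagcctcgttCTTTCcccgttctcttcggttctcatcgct

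How far a rank can be read depends on the probe. For 5204 genes with several probes that passed, the brightest and dimmest probe lay a median of 2.63 apart, about 6.20-fold. In 1070 of these genes (20.6%) all probes agreed within 2-fold, and in 2016 (38.7%) they differed by more than 10-fold. The widest range, 12.79, belonged to Rps18, whose probes gave 8.92, 7.39 and -3.87. Dcn, the matrix proteoglycan decorin, is the most visible case among the lineage markers. Its bright probe at chr10:97080086-97080145 (mm7) gave 8.88, 8.63 and 8.76, while a second probe at chr10:97043200-97043259 gave -1.87, -1.97 and -1.63. Both were steady between arrays and 10.58 apart. Ptprz1, a receptor phosphatase, ranked second at 9.15 ± 0.09 from 1 of its 4 probes, the other three passing on at most 1 array. Pigt, of the GPI anchor pathway, came next at 9.01 ± 0.33 with a second probe at -2.87 ± 0.79. When the mean of a gene's passing probes was used in place of the brightest, 33 of the 50 highest genes stayed among the 50. In that setting Dcn moved from percentile 99.95 to 89.1 and Pigt from 99.98 to 86.2. Erbb3 moved from 85.8 to 29.5 and Erbb2 from 75.6 to 60.8, while Krt8 went from 99.7 to 99.8. Of the genes in the top 50 with several probes, the 3 whose probes all lay within 2-fold were Aldoa, Myl6 and Krt8.

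The replicates agreed closely across the array. Pearson's r across the 12806 genes, which are not independent replicates, was 0.995 between replicates 1 and 2, 0.994 between 1 and 3 and 0.997 between 2 and 3. At least 2-fold apart were 161 genes (1.26%) between replicates 1 and 2, 229 (1.79%) between 1 and 3 and 92 (0.718%) between 2 and 3. The median SD was 0.11, and it fell from 0.26 for genes below a level of -4 to 0.08 for genes above 4. A level near the floor is therefore known less well than a bright one.

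Replicates 2 and 3 were hybridised on the same slide and replicate 1 on another, and the file headers give each slide its own scan time. Among the 15 genes with the largest SD at a mean level above 0, replicate 1 stood apart for 12, lower for 9 and higher for 3, and replicate 3 for the other 3. Matn4, a matrilin of the matrix, stood at -1.98, 0.95 and 1.16, Metrn, meteorin, at 0.22, 2.65 and 2.80, and Prmt1, an arginine methyltransferase, at 2.09, 4.29 and 4.29. Ube2s, a ubiquitin-conjugating enzyme, ran the other way at 4.13, 1.96 and 1.95. These 12 genes were chosen for their gap in the controls, which was at least 1.19 between replicate 1 and the mean of the others. On the pre-miR-16 arrays, 1 on each of these slides, they were at most 0.60 apart between slide 1 and slide 2, and 7 of the 12 differed in the same direction as in the controls. Matn4, for example, gave 1.66 and 1.61 and Prmt1 4.30 and 4.31 on those slides. Over all genes 238 (1.86%) were at least 1.5-fold higher on replicate 1 than on both other controls and 102 (0.797%) at least 1.5-fold lower. Of the former 84 (35.3%) were higher on slide 1 than on slide 2 in the pre-miR-16 arrays, against 50.1% of 12805 genes. Of the latter 62 (60.8%) were lower on slide 1, against 49.9%. The part of the slide in these differences was not tested.

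**Figure D4:**
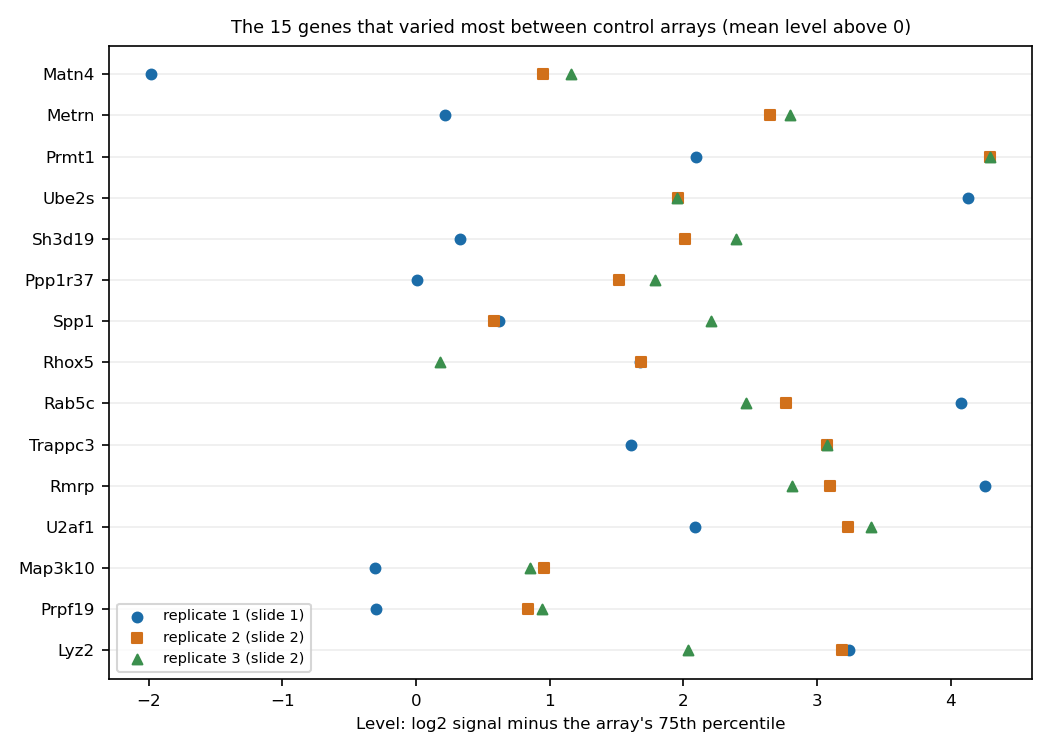
Level on each control array (log2 signal minus the array's 75th percentile) of the 15 genes with the largest SD among genes with a mean level above 0. Replicate 1 stands apart for 12 of the 15, and Spp1, Rhox5 and Lyz2 separate replicate 3.

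Replicate 3 differed from the others in groups of genes with named roles. Values here are replicate 3 minus the mean of replicates 1 and 2. All genes had a median of -0.02 on this contrast, which became 0.13 with median centring and 0.17 with spike-in scaling. Genes of G2 and mitosis had a median of -0.39, with 25 of 28 below 0, while 7063 of all 12806 genes were below 0. Genes of G1/S had -0.16 (26 of 32 below 0) and glycolysis genes -0.24 (18 of 22), with Car9, a carbonic anhydrase raised by hypoxia, at 1.96, 2.02 and 1.14. Lipid synthesis genes ran the other way at 0.26, with 26 of 30 above 0. Idi1, of the mevalonate pathway, stood at 2.44, 2.62 and 3.37. Luminal markers had a median of -0.02 and did not share the shift. Taken relative to the median of all genes, the 4 lists that shifted kept their sign with normexp, median centring, quantile normalization, spike-in scaling and the series matrix. Without that reference the G1/S median was 0.03 with spike-in scaling. The same contrast was also taken for the other arrays. For replicate 1 minus the mean of the others, genes of G2 and mitosis had a median of 0.27, with 24 of 28 above 0. For replicate 2 taken the same way, lipid synthesis genes had -0.18, with 26 of 30 below 0. For each gene the 3 such contrasts sum to 0, so these values partly repeat the difference of replicate 3. They cannot show whether the other arrays differed from each other. Over all measured members, the median level of the G2 and mitosis list was -2.65, -2.68 and -3.13 on replicates 1, 2 and 3. That of the lipid synthesis list was 1.86, 1.81 and 2.03.

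**Figure D5:**
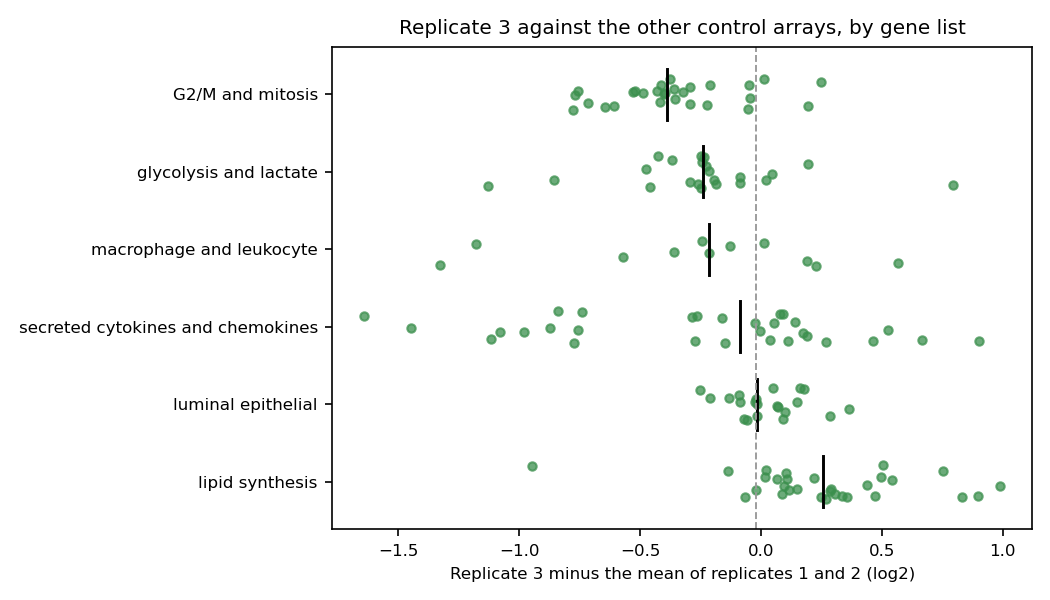
Difference of replicate 3 from the mean of replicates 1 and 2 (log2) for each gene well above background in 6 lists, with the median of the list as a black bar and the median of all genes as a dashed line at -0.02. Genes of G2 and mitosis centre at -0.39 and lipid synthesis genes at 0.26.

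Single cytokine, leukocyte and pericyte genes also differed on replicate 3. Of 30 detected cytokines and chemokines 9 were at least 1.5-fold lower on replicate 3 than on both other arrays, against 1.13% of all genes, and 1 was higher, against 0.453%. Over the whole list the median was -0.09 with 17 of 30 genes below 0, close to the share over all genes. Cxcl14 stood at -0.01, -0.36 and -1.63, Ccl2 at -0.66, -0.72 and -1.53, and Pf4, platelet factor 4, at -2.07, -2.09 and -3.72. The exception was Cxcl15, at 2.45, 2.20 and 3.23. Of the 11 macrophage and leukocyte markers detected, Lyz2 and Fcgr3 (-3.64, -3.72 and -5.01) were lower by that measure, and of the 5 pericyte markers Rgs5 (1.39, 1.15 and 0.29) and Des, desmin (-3.51, -4.22 and -4.96). Of the 21 fibroblast and matrix genes detected 0 were lower and 1 higher by that measure, with a median of 0.02. Csf1r went against this at 1.26, 1.11 and 1.75. Spp1, osteopontin, also stood higher on replicate 3, at 0.62, 0.59 and 2.21. With 1 array on 1 side of this contrast no test exists, and the part of the cell mixture in these differences was not tested.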

How the data were processed

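RNA of the 3 pre-miR-Control cultures was hybridised to 1-colour Agilent arrays. The deposited scanner files hold spot intensity values from Agilent Feature Extraction 9.5.3.1, background-subtracted and detrended within the array but not scaled between arrays, per the file headers. The deposited series matrix holds log2 values whose scaling no source used here gives. Each of its control columns correlated best with its own scanner file (Spearman 0.961 to 0.984).

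Control spots and outlier spots (74 to 96 of 43379) were left out. Spots were averaged per probe on the log2 scale, 41174 probes in all, and the 75th percentile of each array over these probes was subtracted. A probe passed if, on each of the 3 arrays, a share of 0.50 or more of its spots carried the flag for well above background. Of the probes, 22951 were matched to RefSeq by accession, 6659 by symbol and 3109 by synonym, and 8455 unmatched ones were left out. The gene table served for names only, and array coordinates are mm7 as the files give them. Named are members of 38 gene lists (per list the markers, the highest and those detected on no array), the 30 highest genes and the 15 with the largest SD at a mean level above 0. Some members that the rule names are not reported here. Members, lists and rule were chosen with earlier results of these data known. With a single group, no group test was run. Pre-miR-16 intensity was used only for the slide check. The code was tested on simulated data. Alternatives were other background, scaling, source, probe, spot and detection settings and each array left out. Analysis used R 4.3.3, limma 3.58.1, Python and pandas.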

Additional observations from a re-analysis of the deposited data

How the results depend on the processing

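The count of genes well above background kept within 1.5 times of 12806 under each alternative filter, from 12798 to 15147, and from 12885 to 12996 with an array left out. The count of genes with probes at least 2-fold apart (4134) did so under all 12 alternatives run, with 4162 to 4205 when an array was left out. The median level of the list genes, -0.90, moves with the zero of the scale: -0.78 with normexp, 3.03 with median centring, -2.91 with spike-in scaling, -0.77 in the series matrix and -1.34 with the mean of a gene's probes. It was -0.94 to -0.90 with an array left out. The number of genes at least 2-fold apart between any control arrays, 317, fell to 60 with normexp and 65 in the series matrix, and the cause was not tested. It rose to 574 where 2 of 3 arrays sufficed and to 1542 with the weaker detection flag, which admit dimmer genes, and was 97 without replicate 1, 268 without replicate 2 and 193 without replicate 3. Of the 50 brightest genes 33 stayed with the mean of a gene's probes, and at least 48 under the other alternatives. Percentiles of Krt8 and Krt18 stayed above 99, while Pgr ranged from 40.3 to 55.5, Esr1 from 32.2 to 58.0, Elf5 from 34.5 to 45.9 and Erbb2 from 60.8 to 79.4. Signal near background limits the precision of dim genes, whose SD is larger. No paired analysis was possible because only 1 group is described. The slide check was chosen after seeing the data.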
